A study of Caenorhabditis elegans with 6 samples.

Results

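The genes described here are 36 named lipases and lipid droplet genes of the nematode Caenorhabditis elegans, taken by symbol from 3 gene families or roles; no measured value enters the rule, but the set was drawn up with earlier results of these data known. They fall into 8 lipl genes for lysosomal lipases, 17 lips genes, named for lipase-related proteins, and 11 genes of lipid droplets and of lipolysis in the cytosol. Among the lips genes, lips-14 and lips-16 are annotated as pseudogenes and stay in the counts and sums below. Of the 36 members, 34 were matched to 1 of the 46904 gene IDs in the files. The symbols lips-4 and pnpla-1 matched no ID in the name tables used and were not analysed here. RNA came from whole adult hermaphrodites of the wild-type strain N2, kept from the last larval stage at 25 °C for 72 h on agar seeded with OP50 bacteria and collected on day 3 of adulthood. The control group had no caffeine (0 mM) and the other group had 10 mM caffeine in the agar, with 3 samples in each. Each sample pooled about 300 worms and, per the labels, was a biological replicate. The study's title sets caffeine and lysosomal lipolysis as its question.

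Fat in C. elegans is held as triglyceride in lipid droplets, mostly of the intestine and epidermis. Cytosolic lipases release fatty acids at the droplet surface, where ATGL-1 starts triglyceride breakdown with its cofactor LID-1, while lysosomal acid lipases act inside lysosomes after droplets are delivered there. Several lipl genes are known to be induced by fasting under the transcription factor HLH-30, with MXL-3 acting as its counterpart, and LIPL-4 is known for a lysosomal signal carried by the fatty acid binding protein LBP-8.

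Each library held between 40417780 and 40746556 expected counts, which are estimated reads per gene, so depth was nearly equal in all 6. Along the leading principal component, with 66.6% of the variance, control libraries lay at -35.2, -53.95 and -39.1 and caffeine libraries at 27.2, 50.4 and 50.7, with caffeine library 1 nearest the controls. CPM below is the depth-scaled count with TMM factors, and a gene was called when its Benjamini-Hochberg adjusted p over all tested genes was under 0.05 in edgeR's quasi-likelihood test.

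Calls were found in all 3 classes, in both directions among lips genes, upward among lipl genes and downward among droplet genes. The share of tested genes called was 66.7% for lipl, 54.5% for lips and 20.0% for droplet genes. The droplet share lies below the 24.3% of all tested genes. Of 27 members with enough counts to test, 8 were called higher and 4 lower. Among all 14200 tested genes 24.3% were called, 13.8% higher and 10.5% lower, and 44.4% of the tested members were, a description of a set not chosen blind to these data. The lipl class had 4 of 6 tested genes higher and 0 lower, the lips class 4 higher and 2 lower of 11, and the droplet class 0 higher and 2 lower of 10. lipl-3 reached the count filter's minimum of 10 counts only in caffeine libraries, and lips-12 only in control libraries. Each was thus tested through the group where it was higher, and both are among these calls. By the unadjusted p, 1 lipl gene was lower and 0 droplet genes were higher. DESeq2 and limma-voom each called 1 lipl gene lower and 0 droplet genes higher. The median log2 fold change was 1.31 for lipl genes, 0.17 for lips genes and -0.10 for droplet genes, beside 0.00 for all tested genes. Groups did not overlap in 15 of the 27 tested members, where 44.3% of all tested genes showed the same. The remaining 7 matched members fell under the count filter: lipl-6, lipl-8, lips-2, lips-6, lips-7, lips-8 and lips-9. None of them passed 9 counts in any library.

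**Figure D1:**
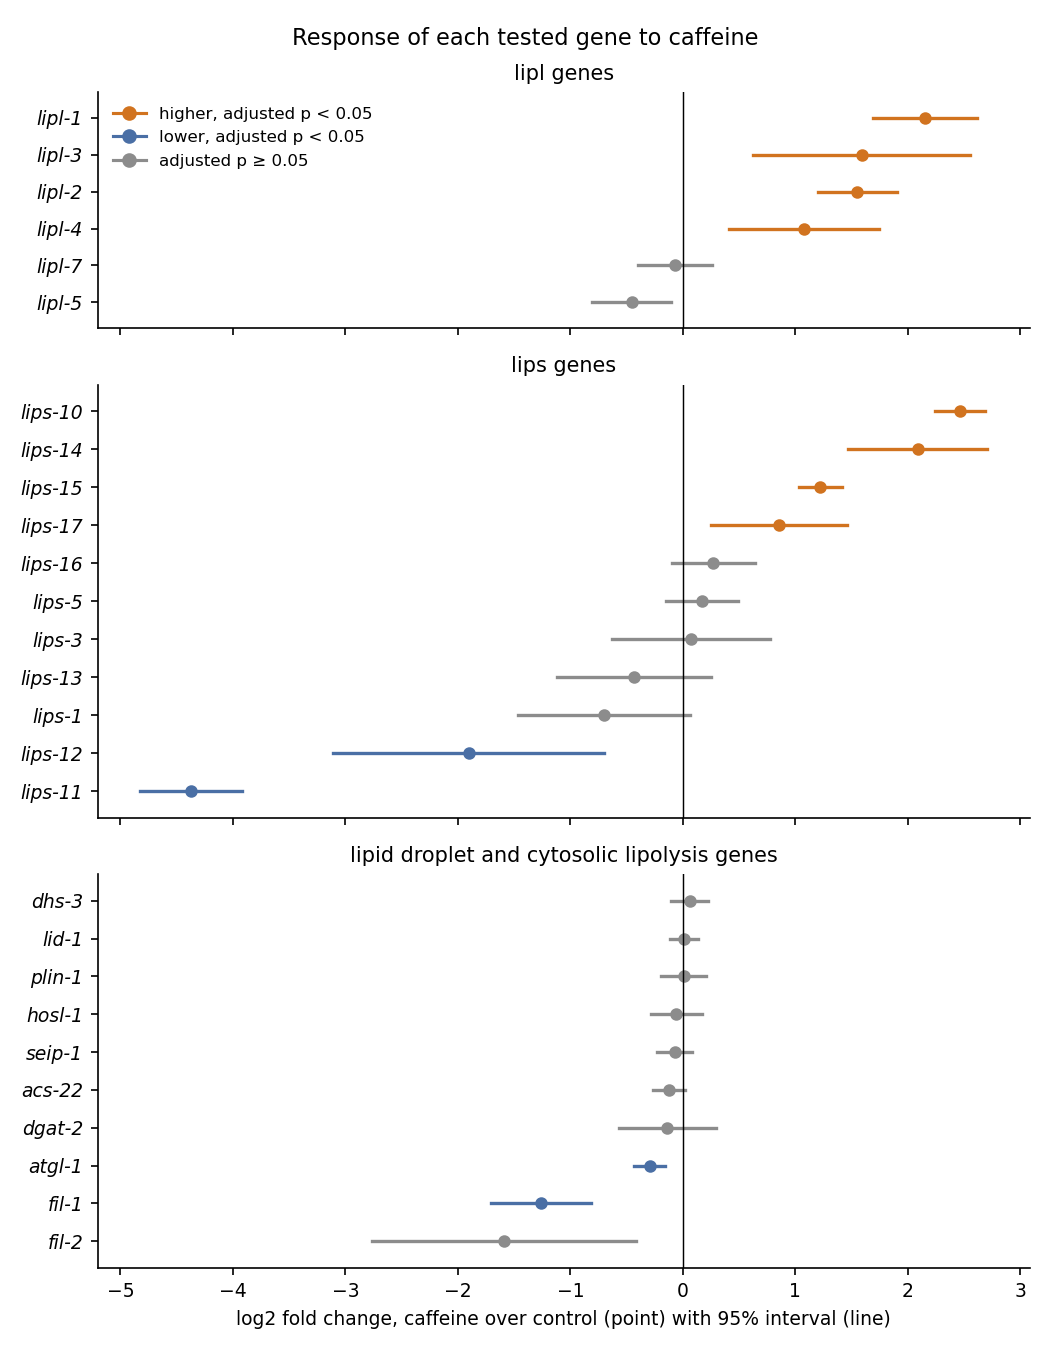
Log2 fold change of each tested gene, caffeine over control (x axis), with its 95% interval as a line; genes are rows, grouped by class and ordered by value. Orange marks genes called higher, blue those called lower and grey the others; most droplet genes lie within narrow intervals around 0, while lips-11 lies at -4.37 and lips-10 at 2.46.

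Among the lysosomal lipases, lipl-1 and lipl-2 rose by the clearest margins. lipl-1, a lipase known to be induced by fasting, had 447.9, 344.5 and 272.1 expected counts in control libraries 1 to 3 and 1221, 1706 and 1958 in the caffeine libraries, or 8.85 ± 2.16 and 39.5 ± 8.03 CPM (mean ± SD, n = 3). Every caffeine value lay above every control value, a 4.46-fold rise (log2 fold change 2.16, SE 0.20, adjusted p 0.000253, edgeR). The gene lies on chromosome V (12919986 to 12921692, plus strand, WBcel235), and its expected counts carried fractions in all 6 libraries, with no gene found whose fractions complement them, so its level is uncertain to the extent that reads were divided. lipl-2 (chromosome V, 9791567 to 9793241, plus strand) went from 15.1, 15.9 and 10.5 to 36.3, 42.1 and 43.4 CPM, again with no overlap. Its rise was 2.93-fold (log2 fold change 1.55, SE 0.15, adjusted p 0.000337, edgeR). Both lipl-1 and lipl-2 were called whichever library was left out.

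lipl-3 and lipl-4 were called higher at far lower levels. lipl-4, the lysosomal lipase whose overexpression is known to lengthen worm lifespan, was counted 20, 21 and 27 times in the control libraries and 46, 64 and 38 times in the caffeine libraries, with no overlap and a log2 fold change of 1.07 (95% interval 0.41 to 1.74, adjusted p 0.0305, edgeR). lipl-3, which HLH-30 is known to induce in fasting, was counted 6, 3 and 3 times against 10, 17 and 11 times, also without overlap (log2 fold change 1.59, 95% interval 0.62 to 2.56, adjusted p 0.0287, edgeR). With 1 library left out, lipl-3 missed the threshold without control library 2 or 3 or caffeine library 2 or 3 (adjusted p 0.117, 0.102, 0.112 and 0.0644, edgeR). It also missed it in DESeq2 (adjusted p 0.12) and with no low-count filter (adjusted p 0.0676, edgeR). lipl-4 missed it without control library 1 or 2 or caffeine library 2 (adjusted p 0.0976, 0.0882 and 0.108, edgeR). lipl-3 overlaps srw-107 on its own strand, and lipl-4 overlaps a noncoding RNA gene and a transfer RNA gene on the other strand, which leaves the source of some of these reads uncertain.

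lipl-5, the most abundant lipl gene, was not called. Its levels were 181, 202 and 189 CPM in control libraries and 179, 114 and 124 CPM with caffeine. All caffeine values lay below all control values, but caffeine library 1 was close to the controls and the adjusted p was 0.0598 (log2 fold change -0.46, 95% interval -0.80 to -0.11, edgeR). Without caffeine library 1 the log2 fold change was -0.68 and the adjusted p 0.000585 (edgeR). lipl-7 had 17.5, 18.4 and 20.7 CPM in control and 16.1, 22.2 and 15.6 CPM with caffeine, overlapping groups with a log2 fold change of -0.07 (95% interval -0.40 to 0.26).

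**Figure D2:**
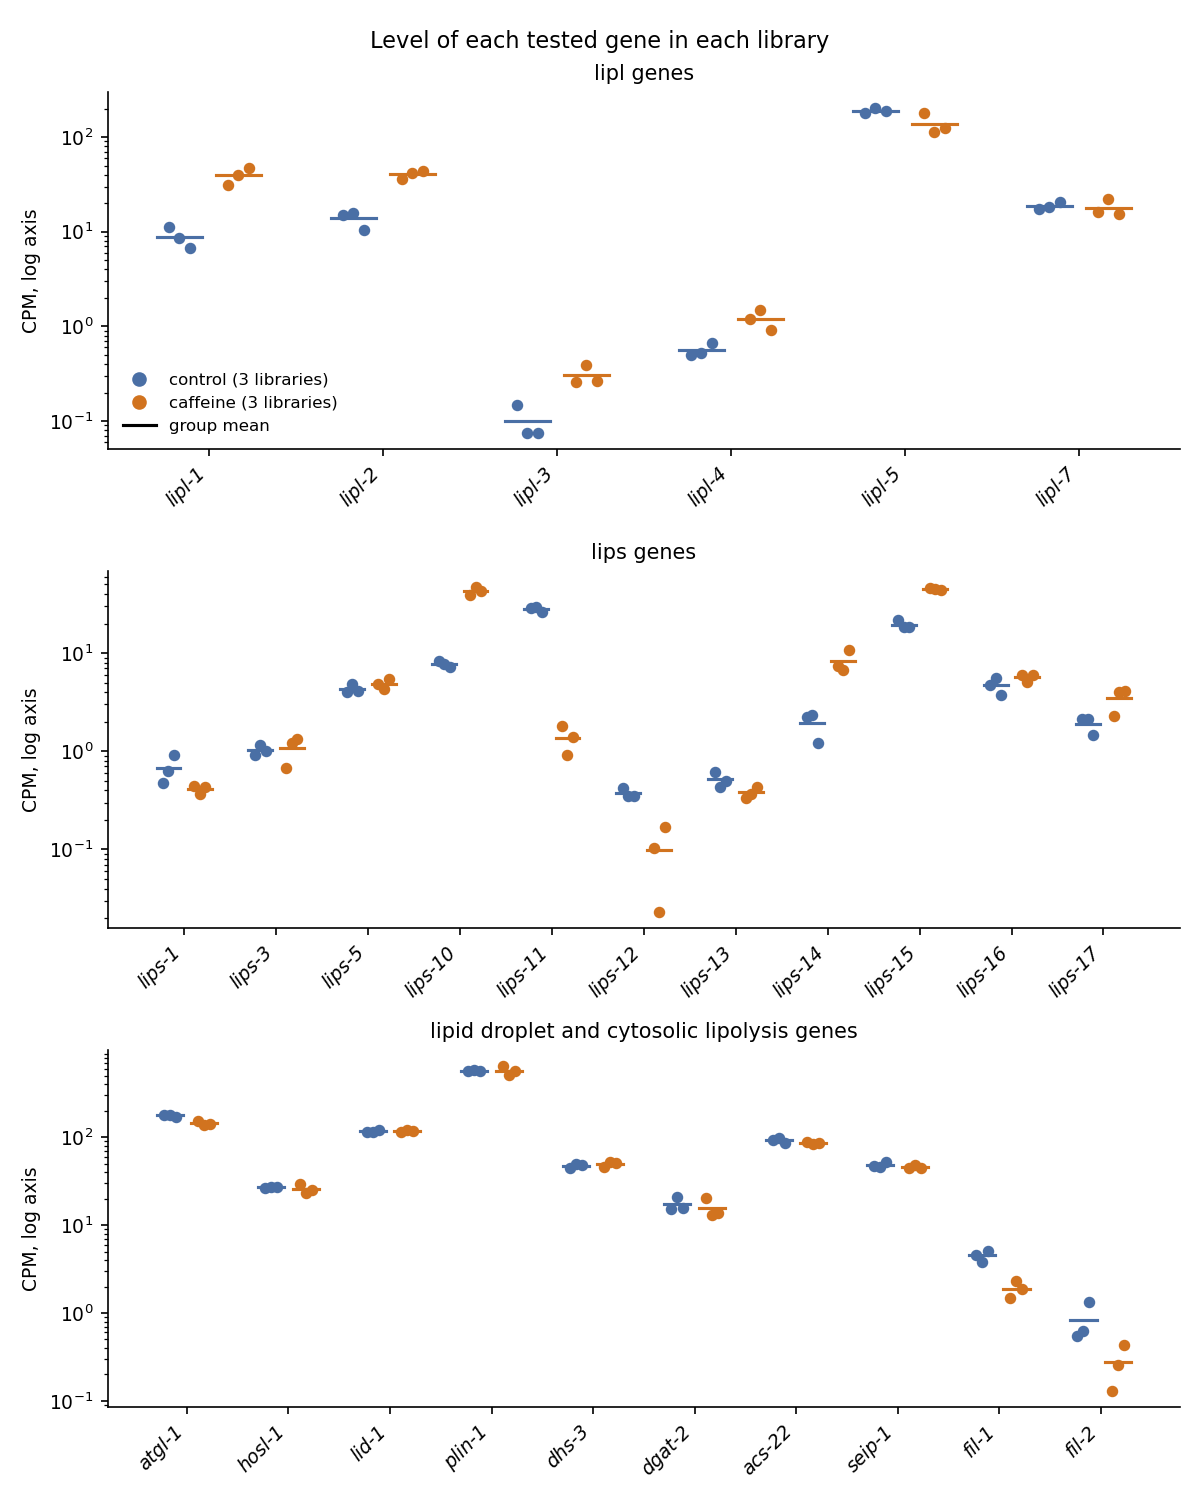
CPM of each tested gene in each library on a log axis (y axis), with genes along the x axis and 1 panel per class; blue points are control libraries and orange points caffeine libraries 1 to 3 from left to right, and the bar is the group mean. lips-11 falls from near 28.2 to 1.37 CPM on average, while plin-1 stays near 573 and 575 CPM.

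Per kilobase of exon, which allows genes to be compared, lipl-5 led the class in every library. In control it stood at 151 ± 8.44 CPM per kb (mean ± SD, n = 3), followed by lipl-7 at 14.6 ± 1.27, lipl-2 at 10.9 ± 2.29 and lipl-1 at 6.62 ± 1.61. lipl-2 differed from each neighbour in that order by less than 2 of its SDs. lipl-4 was at 0.343, lipl-6 at 0.0819, lipl-3 at 0.0694 and lipl-8 at 0.0344 CPM per kb. With caffeine the order became lipl-5 at 110.1 ± 27.5, lipl-2 at 31.8 ± 2.96, lipl-1 at 29.5 ± 6.00 and lipl-7 at 13.9 ± 2.83, and lipl-1 and lipl-2 did not differ beyond their spread. lipl-5 made up 80.7% to 83.4% of the summed lipl level per length in control libraries and 52.7% to 68.4% with caffeine. The sum itself was 183.5 ± 8.72 in control and 186.4 ± 18.6 CPM per kb with caffeine, so the makeup of the class moved and its overlapping sums did not separate the groups.

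**Figure D3:**
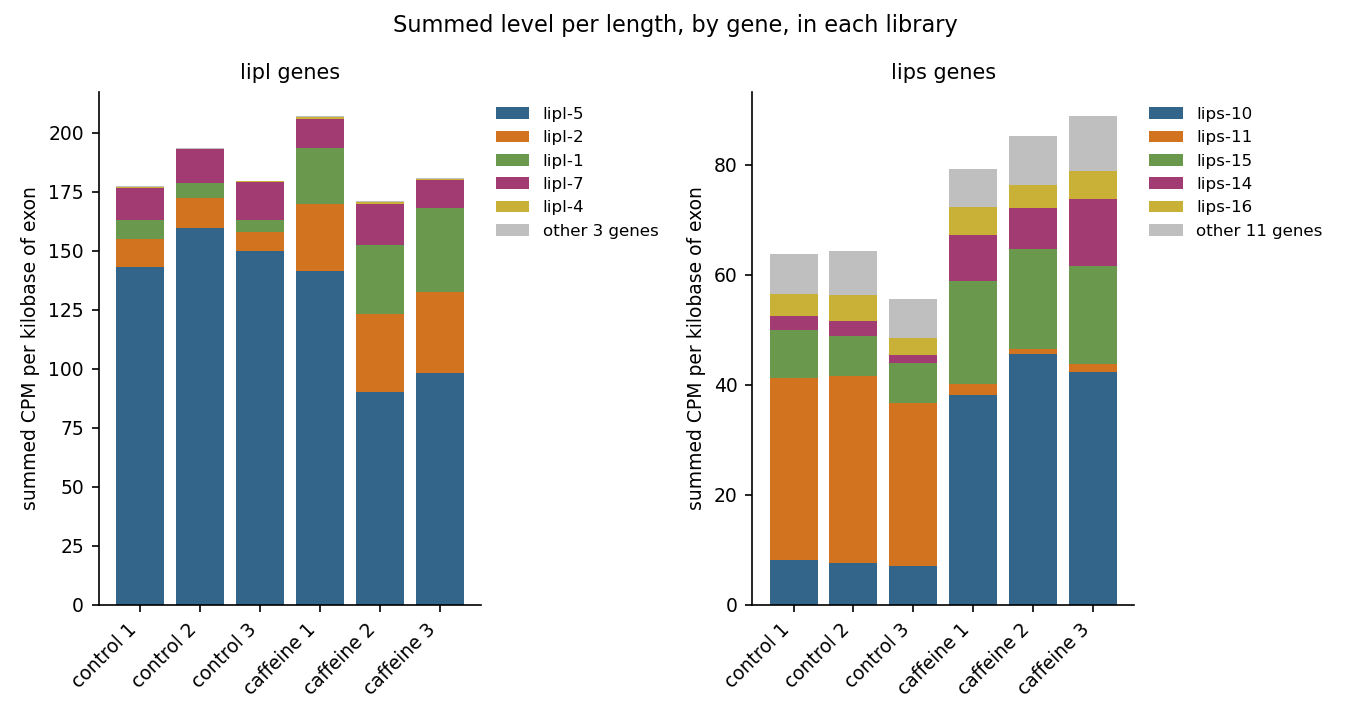
Summed CPM per kilobase of exon (y axis) in each of the 6 libraries (x axis), stacked by gene, for lipl genes on the left and lips genes on the right. The lipl bars stay between 171 and 207, and lipl-5 makes up a smaller share of each caffeine bar. In caffeine library 1 the height of its part is close to the controls, and lipl-5 was not called. In the lips bars lips-11 is the largest part in all control libraries and lips-10 in all caffeine libraries.

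The lips genes moved in both directions, and the leading gene of the class changed. lips-10 (chromosome II, 8439168 to 8442151, plus strand) rose from 8.37, 7.76 and 7.25 to 39.0, 46.7 and 43.3 CPM. The groups were far apart, a 5.52-fold rise with a small error (log2 fold change 2.46, SE 0.10, adjusted p 4.93e-06, edgeR). Only 1.04% of all tested genes had a larger positive log2 fold change. lips-11 (chromosome II, 1108841 to 1111001, minus strand) moved the other way, from 29.0, 29.8 and 25.9 CPM to 1.80, 0.923 and 1.38 CPM. That is a 20.7-fold fall (log2 fold change -4.37, SE 0.20, adjusted p 8.37e-06, edgeR), and 0.0211% of tested genes had a more negative value. Per kilobase, lips-11 stood at 32.2 ± 2.33 in control and 1.56 ± 0.503 CPM with caffeine, and lips-10 at 7.60 ± 0.55 and 42.0 ± 3.74 (n = 3 per group). lips-11 supplied 51.9% to 53.3% of the summed lips level per length in control libraries, and lips-10 supplied 47.6% to 53.4% in caffeine libraries. The summed level was 61.2 ± 4.91 in control and 84.4 ± 4.78 CPM per kb with caffeine, with no overlap between groups.

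lips-11 has the lowest coordinates of 3 lips genes that lie head to tail on the minus strand of chromosome II. By coordinate, lips-12 lies 1182 bp beyond it (1112184 to 1114233) and lips-13 another 1372 bp on (1115606 to 1118042). In the direction of transcription lips-13 thus comes first and lips-11 last. lips-12 was counted 17, 14 and 14 times in control libraries and 4, 1 and 7 times in caffeine libraries. These do not overlap, and the gene was called lower (log2 fold change -1.90, 95% interval -3.11 to -0.70, adjusted p 0.0324, edgeR), but with 1 library left out it passed only without caffeine library 3, at 0.0320, and otherwise had adjusted p of 0.0954, 0.0832 and 0.0706 without control libraries 1 to 3 and 0.0600 and 0.0760 without caffeine libraries 1 and 2 (edgeR). DESeq2 gave an adjusted p of 0.0556. lips-13 had 25.04, 17.1 and 20.06 counts against 13.16, 16 and 18, and its groups overlapped (log2 fold change -0.44, 95% interval -1.12 to 0.25, adjusted p 0.311, edgeR). The intervals of lips-11 and lips-13 do not meet, while a test of the difference between these genes was not run.

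Part of the reads of lips-11 and lips-13 could not be told apart in the counting. In the 4 libraries where lips-11 was not a whole number, lips-13 was not whole either, and their fractions added to 1 within 0.011. Added together, so that the division has no effect, both genes gave 1196, 1200 and 1058 counts in the control libraries and 83, 56 and 75 in the caffeine libraries. The log2 ratio of the mean CPM was -4.04 for the sum, against -4.37 for lips-11 alone in the same measure. This sum was added after the data were seen.

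lips-15, lips-14 and lips-17, also on chromosome II, were called higher. lips-15 (12604386 to 12607027, plus strand) went from 21.6, 18.3 and 18.2 to 46.5, 44.9 and 44.3 CPM, tight groups a factor of 2.33 apart (log2 fold change 1.22, SE 0.08, adjusted p 5.66e-05, edgeR). Its neighbour lips-16, 3285 bp away on the opposite strand, had 4.78, 5.54 and 3.77 against 5.98, 5.03 and 6.02 CPM and was not called (log2 fold change 0.27, 95% interval -0.10 to 0.64). lips-14 (1484094 to 1485764, minus strand) rose from 2.23, 2.37 and 1.22 to 7.42, 6.64 and 10.7 CPM, a 4.25-fold change (log2 fold change 2.09, SE 0.27, adjusted p 0.00127, edgeR). Both lips-14 and lips-16 are annotated as pseudogenes, so their values are transcript levels of genes not annotated to encode a protein. lips-17 (7608253 to 7611005, plus strand) had 2.13, 2.14 and 1.47 CPM in control and 2.27, 4.01 and 4.10 with caffeine. Caffeine library 1 lay just above the controls, and the call was marginal (log2 fold change 0.86, SE 0.26, adjusted p 0.0480, edgeR). With 1 library left out it passed only without caffeine library 1, at 0.00768. The others gave adjusted p of 0.0879, 0.0911 and 0.128 without control libraries 1 to 3 and 0.150 and 0.144 without caffeine libraries 2 and 3 (edgeR). DESeq2 gave an adjusted p of 0.0229 and limma-voom 0.0624. lips-17 also overlaps R07G3.7 on the other strand.

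The lips genes off chromosome II that could be tested, lips-1, lips-3 and lips-5, were not called. lips-1 on chromosome X had 0.471, 0.630 and 0.924 CPM in control and 0.438, 0.369 and 0.437 with caffeine, not overlapping, at an adjusted p of 0.158 (edgeR). lips-5 on chromosome IV was between 3.99 and 4.84 CPM in control and between 4.34 and 5.41 with caffeine. lips-3 on chromosome III was near 1 CPM in both groups, at 1.02 ± 0.123 and 1.08 ± 0.356 (mean ± SD, n = 3). lips-1 overlaps a noncoding RNA gene on its own strand, and lips-3 overlaps pfas-1 and a noncoding RNA gene on the other.

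Of the genes for triglyceride breakdown at the droplet, 1 was called. atgl-1, the adipose triglyceride lipase of the worm (chromosome III, 6415772 to 6419459, minus strand), had 181.1, 181.4 and 172 CPM in control and 155, 138 and 143 CPM with caffeine. Groups did not overlap and the fall was small, at 1.23-fold (log2 fold change -0.29, SE 0.06, adjusted p 0.0101, edgeR), and it was called whichever library was left out. lid-1, its cofactor and the relative of CGI-58, was at 114.2, 114.1 and 122.5 against 114, 122 and 118 CPM, a log2 fold change of 0.01 whose 95% interval ran from -0.11 to 0.13. hosl-1, the hormone-sensitive lipase, was at 26.9 ± 0.362 and 25.9 ± 3.53 CPM (mean ± SD, n = 3), with an interval from -0.29 to 0.17.

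Of the genes named as fasting-induced lipases, fil-1 and fil-2, fil-1 fell and fil-2 missed the threshold. lipl-1 and lipl-3, described above as induced by fasting, went the other way and were called higher (log2 fold change 2.16 and 1.59). fil-1 (chromosome V, 14993838 to 14995207, plus strand) went from 4.56, 3.85 and 5.15 to 1.495, 2.28 and 1.87 CPM. No value overlapped, and the fall was 2.39-fold (log2 fold change -1.26, SE 0.19, adjusted p 0.00296, edgeR). fil-2 (chromosome V, 6279031 to 6280146, plus strand) was counted 22, 25 and 53 times in control libraries and 5, 11 and 18 times in caffeine libraries, with no overlap. It did not pass the threshold (log2 fold change -1.59, 95% interval -2.76 to -0.42, adjusted p 0.0543, edgeR). DESeq2 gave an adjusted p of 0.0351 and limma-voom 0.0549. None of the 6 fits with 1 library left out called it. The highest adjusted p was 0.169, without control library 3, the library with 53 counts, where the log2 fold change was -1.09 (edgeR).

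None of the 5 droplet coat and assembly genes was called. plin-1, the perilipin that coats droplets, had 569, 586 and 562 CPM in control and 641, 509 and 576 with caffeine, and its 95% interval ran from -0.19 to 0.21 in log2. dhs-3, a dehydrogenase abundant on intestinal droplets, was at 47.4 ± 2.19 and 49.5 ± 3.46 CPM, and seip-1, the seipin of droplet formation, at 48.5 ± 2.96 and 46.1 ± 1.85 (mean ± SD, n = 3). The triglyceride-forming enzyme gene dgat-2 was between 15.5 and 20.7 CPM in control and between 13.1 and 20.4 with caffeine, the widest interval of this subgroup at -0.57 to 0.29. acs-22, a fatty acid transport protein known to act with DGAT-2 in droplet growth, was at 94.3, 99.4 and 87.1 against 87.9, 84.7 and 85.5 CPM, with 1 caffeine value above the lowest control and an interval from -0.26 to 0.02. Each interval left out a 2-fold change in either direction. dhs-3, dgat-2 and acs-22 overlap genes on the other strand, and dgat-2 also a gene on its own strand.

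plin-1 was the most abundant droplet gene per length, at 301 ± 6.49 CPM per kb in control and 303 ± 34.8 with caffeine (n = 3). lid-1 at 88.3 ± 3.64 and atgl-1 at 67.5 ± 1.99 followed in control. seip-1 at 48.99 ± 3.00 and dhs-3 at 46.0 ± 2.13 came next and were within their spread of each other. acs-22 was at 38.2, dgat-2 at 14.7, hosl-1 at 7.83, fil-1 at 3.65 and fil-2 at 0.835 CPM per kb. The summed level of the class was 617 ± 9.66 in control and 599 ± 34.7 CPM per kb with caffeine, overlapping.

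**Figure D4:**
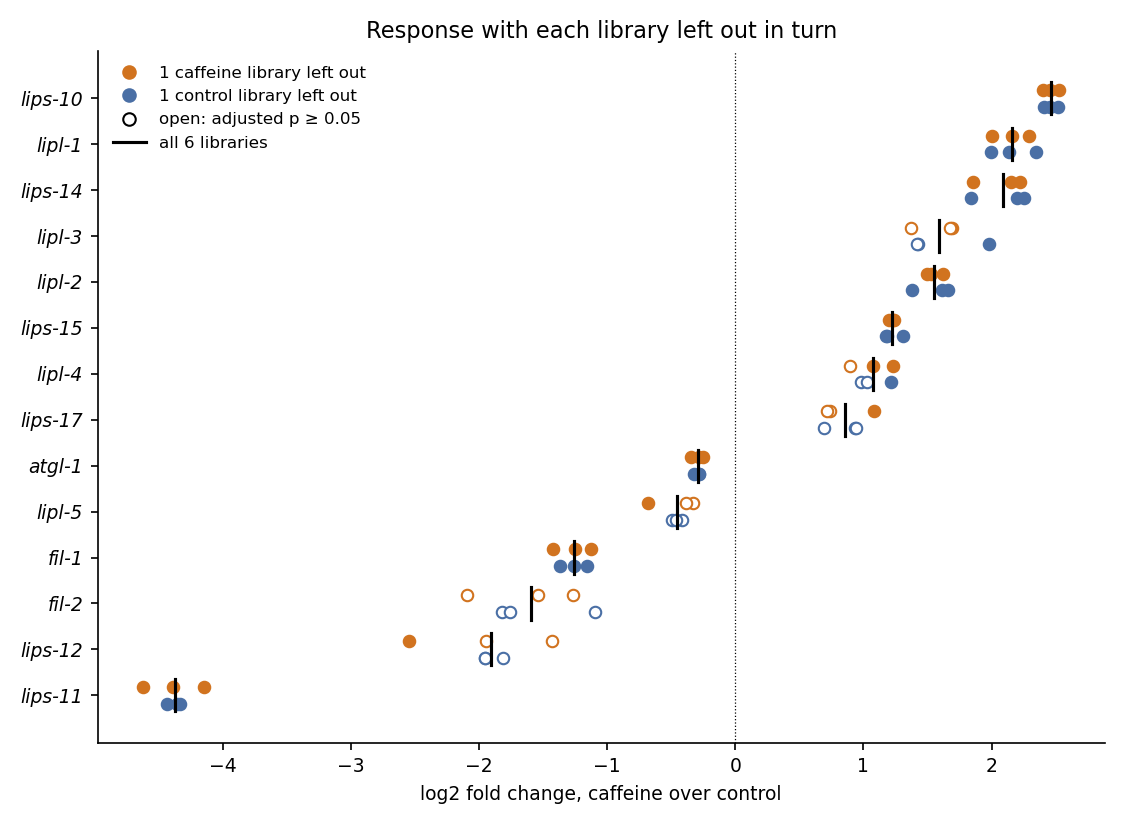
Log2 fold change (x axis) of the called genes and of lipl-5 and fil-2 (rows) with each of the 6 libraries left out in turn; filled points passed an adjusted p of 0.05, open points did not, and the black bar is the value with all 6 libraries. lips-10, lips-11, lips-14, lips-15, lipl-1, lipl-2, atgl-1 and fil-1 are filled throughout, while lips-12 and lips-17 are filled in 1 of 6 fits.

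Regulators known to act on these genes, listed together with lbp-8, were compared in the same fit. Of 20 listed, 4 were called higher and 3 lower, 35% against 24.3% of all tested genes. The number called was 4 without control library 2 or caffeine library 3, fits in which fewer genes were called overall. The gene of the lysosomal messenger LBP-8 (lbp-8) had 1.73, 1.16 and 0.500 CPM in control and 10.9, 21.6 and 24.3 with caffeine, the largest rise of the list (log2 fold change 4.06). nhr-76, a nuclear receptor known to drive atgl-1 in the intestine, rose from 10.2, 10.8 and 9.67 to 20.5, 18.5 and 18.96 CPM (log2 fold change 0.92, adjusted p 0.000295, edgeR). hlh-11, a known repressor of atgl-1, rose from 21.5, 24.1 and 23.9 to 40.1, 35.3 and 34.1 CPM (log2 fold change 0.65, adjusted p 0.00144, edgeR). kin-1, the catalytic subunit of protein kinase A, was called at 0.26 and an adjusted p of 0.0495 (edgeR), and in none of the fits with 1 library left out. The lower genes were pqm-1 at -0.99, mdt-15 at -0.36 and skn-1 at -0.31 in log2. skn-1 was called in 2 of those 6 fits and mdt-15 in 4 of them. hlh-30 itself was not called, at 49.01, 50.6 and 47.5 CPM against 51.8, 39.2 and 44.8. Neither were mxl-3, at 7.63, 9.39 and 7.15 against 13.2, 7.27 and 11.5 CPM, and nhr-49, whose 95% interval ran from -0.18 to 0.06 in log2.

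Genes of lysosome membranes, lipid export and lysosome-related gut granules numbered 16, of which 2 were called higher and 3 lower, 31.2% against 24.3% of all tested genes. Without control library 1, control library 3 or caffeine library 3, 2 were called, and without control library 2 or caffeine library 2, 3 were. ncr-1, a relative of the Niemann-Pick C1 sterol transporter, fell from 41.4, 38.4 and 33.9 to 18.1, 18.2 and 15.1 CPM (log2 fold change -1.14, adjusted p 0.000246, edgeR). ppt-1, palmitoyl-protein thioesterase, rose from 2.60, 3.17 and 3.298 to 5.18, 7.43 and 5.78 CPM (log2 fold change 1.02, adjusted p 0.00443, edgeR). lmp-2 was higher at 0.61, and lmp-1 and scav-3 were lower at -0.25 and -0.19 in log2. These 3 small changes passed in at most 2 of the fits with 1 library left out.

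Other lipid hydrolases and genes of lipid synthesis were counted in the same way. Among 10 further lipid hydrolases, 9 were tested, with 3 higher and 2 lower, 55.6% against 24.3% of all tested genes. The number called was 3 without control library 1 or control library 3. faah-2, a fatty acid amide hydrolase, fell from 150, 175 and 131 to 59.7, 34.5 and 42.8 CPM (log2 fold change -1.74, adjusted p 0.000565, edgeR). Its relative faah-1 rose from 19.5, 18.7 and 21.8 to 30.5, 36.8 and 40.03 CPM (log2 fold change 0.84). Among 9 genes of fatty acid and triglyceride synthesis, mboa-2 at 0.29 and acl-6 at 0.21 were higher and lpin-1, the lipin phosphatase, was lower at -0.44 in log2, which makes 33.3% of the list. acl-6 passed in 1 of the fits with 1 library left out. Of 11 genes for droplet size and droplet proteins, 3 were higher and 1 lower, or 36.4%, and without control library 2 or caffeine library 3 the number called was 2. pmt-1, a methyltransferase of phosphocholine synthesis, rose from 187, 194 and 206 to 396, 401 and 355 CPM (log2 fold change 0.98, adjusted p 6.4e-05, edgeR).

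**Figure D5:**
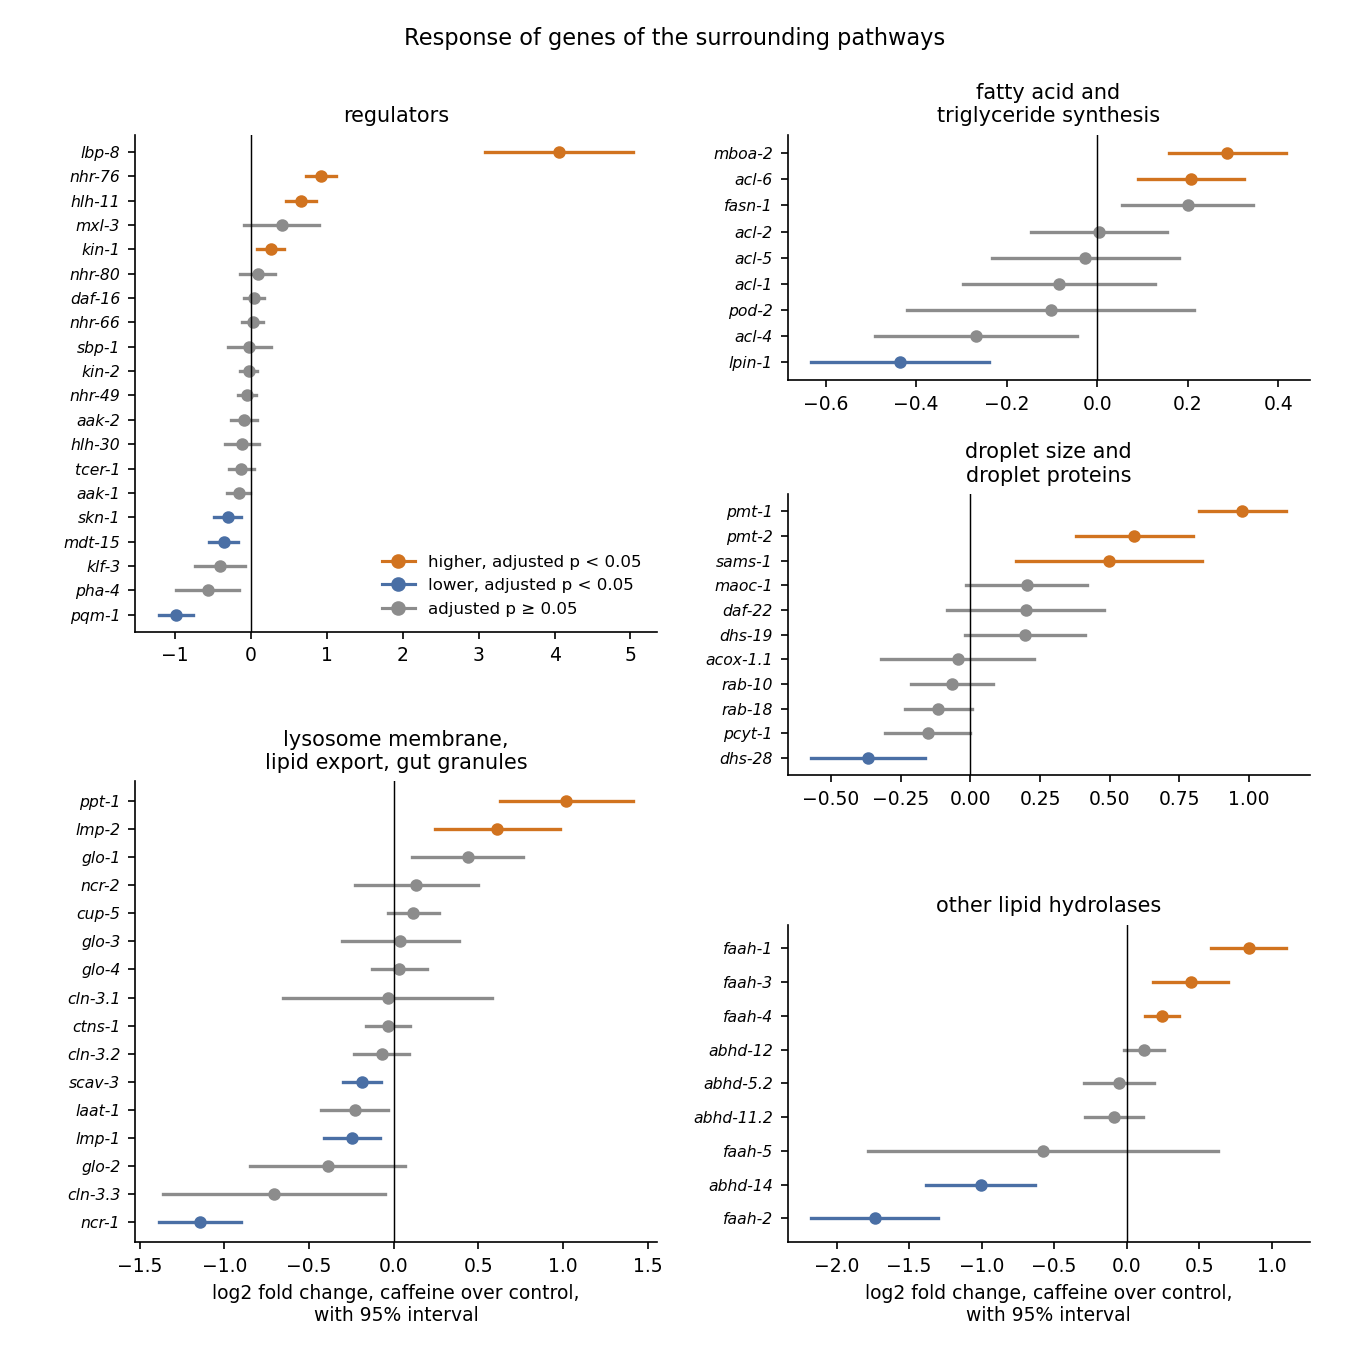
Log2 fold change of the tested genes of 5 surrounding lists, caffeine over control (x axes, which differ between panels), with 95% intervals as lines; orange is called higher, blue called lower, grey not called. The rise of lbp-8 at 4.06 and the falls of faah-2 at -1.74 and ncr-1 at -1.14 stand out from intervals mostly within 1 of 0.

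Markers of the tissues in a whole worm moved as well, and their part in the changes above was not tested. In bulk RNA, fewer cells of a type and less RNA per cell cannot be told apart. The counts below stand beside 24.3% of all tested genes called, 13.8% higher and 10.5% lower. The markers elt-2, act-5, pept-1 and erm-1 were called lower and asp-1 higher among 9 intestine markers, whose summed level ran from 1498 to 1781 CPM in control and from 1589 to 1777 CPM with caffeine. That sum is set mostly by asp-1, the gene called higher, at 834.5 to 1068 CPM in control and 1149 to 1290 CPM with caffeine. In the separate sum per length, asp-1 held 65.6% to 69.1% in control and 79.5% to 80.6% with caffeine. The log2 fold changes of act-5 and pept-1 were -1.12 and -1.15. Epidermis markers summed to between 377 and 425 CPM in control and between 508 and 605 CPM with caffeine, with 2 of 7 called higher and 1 lower. The 2 called higher, col-19 and col-140, went from means of 42.9 and 68.0 to 93.1 and 206.5 CPM, and carried the rise of the sum. lin-26 went from 196.5 to 181.0 CPM, and nhr-23, the gene called lower, from 88.6 to 77.6 CPM. Of the others, dpy-7 also fell, while rol-6 and bli-1 rose at means under 1 CPM, none of them called. Body muscle markers ran from 263 to 294 and from 357 to 490 CPM, with 3 of 5 higher, and pharynx markers from 12.4 to 15.3 and from 17.7 to 22.1 CPM, with 3 higher and 1 lower of 4 tested. Neuron markers lay between 211.5 and 221 CPM in control and between 214 and 220.0 CPM with caffeine, with 2 of 6 higher and 1 lower. Most of that sum is snb-1, at 162.8 to 169.1 CPM in control and 170.2 to 172.5 CPM with caffeine. In the separate sum per length, snb-1 held 87.3% to 87.9% in control and 87.9% to 88.7% with caffeine. All 6 had groups that did not overlap, where 44.3% of all tested genes showed the same, and 4 of the 6 had a log2 fold change above 0. Germline markers ran from 14550 to 15680 and from 11920 to 16090 CPM, with 1 of 9 called, lower. All 9 had a log2 fold change below 0, with a median of -0.23. Caffeine library 1 stood at 16090 CPM, while the other caffeine libraries, at 11920 and 13010 CPM, lay below every control. Without caffeine library 1, a fit with 2512 genes lower in all, every germline marker but cpg-2 and puf-5 was called lower (adjusted p 0.00306 to 0.0332, edgeR). Sperm markers ran from 6.57 to 26.4 and from 7.41 to 12.1 CPM, with 1 of 8 tested called, lower. Control library 2 stood apart at 26.4 CPM, against 7.83 and 6.57 CPM in the other control libraries. The log2 fold change of the called gene gsp-4 was -2.59 with all libraries and -1.40 without control library 2, where it was not called (adjusted p 0.176, edgeR), and it was called in 2 of the 6 fits with 1 library left out. No list had more than 1 marker at 0 in any library.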

How the data were processed

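Poly(A) RNA was sequenced from both ends as stranded libraries, per the labels' protocols, 3 control and 3 caffeine. The authors deposited 1 file per library of expected counts, estimated reads per gene, per the file headers; they were not scaled. STAR 2.7.0e and RSEM 1.3.1 and the build WBcel235 (ce11) are named in the submitters' processing notes, without roles. The annotation and the strand setting of counting are not given in the sources used here. Between 2.40% and 2.80% of values in a library were not whole.

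Expected counts were rounded, filtered with filterByExpr (minimum count 10, minimum total 15; 14200 genes left), scaled by TMM and tested with edgeR 4.0.16 in R 4.3.3 (quasi-likelihood, no covariate, 6 libraries), adjusted over all tested genes. A standard error is the log2 fold change divided by the square root of F. The steps were also run on simulated counts. Those held fewer changed genes than were called here and no small changes, so that run does not bear on small changes. Symbols came from a name table, except lips-14 and lips-16, matched through RefSeq genes with the same start and end. Coordinates and exon lengths are those of Ensembl 115. Alternatives were 3 other scalings, 2 filters, DESeq2 1.42.0, limma-voom 3.58.1, unrounded counts, a replicate block and each library left out. Every member is accounted for. From each pathway list the text names the called genes with the smallest adjusted p and the largest change, plus hlh-30, mxl-3, nhr-49 and lbp-8; other called genes are named after their values were seen. The members and lists were chosen with earlier results of these data known. Sequences are not shown.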

Additional observations from a re-analysis of the deposited data

How the results depend on the processing

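Of 27 tested members, 15 kept direction and side of the threshold in all 15 alternatives that could test them, among them 8 of the 12 called. No called member changed sign. The lipl genes called higher, 4, became 2 with a mean of at least 50 counts, where lipl-3 and lipl-4 were not tested, and 2 with the replicate block; with 1 library left out they ran from 2 to 4. The lipl genes called lower, 0, became 1 (lipl-5) with library totals only, with no low-count filter, in DESeq2 and in limma-voom, and ran from 0 to 1 with 1 library left out. The lips genes called lower, 2, became 1 with no low-count filter, with a mean of at least 50 counts, in DESeq2 and with the replicate block, and ran from 1 to 2 with 1 library left out; lips-12 was the gene lost. Over all genes, leaving out 1 library gave 1209 to 2264 higher and 698 to 2512 lower, lowest without control library 2 and highest without caffeine library 1. Called genes ran from 4 to 9 among regulators listed with lbp-8, 2 to 4 for droplet size, 2 to 6 for lysosome genes and 3 to 6 for other hydrolases. The replicate block left 2 lysosome genes called. The cause of these shifts was not tested.

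Uncalled members near 0 changed sign: lid-1 to -0.002 in DESeq2, plin-1 to -0.002 with RLE factors and -0.005 in DESeq2. With 1 library left out, log2 fold changes ran from -0.251 to 0.022 for lipl-7, -0.109 to 0.315 for lips-3, -0.173 to 0.024 for hosl-1, -0.013 to 0.041 for lid-1, -0.081 to 0.089 for plin-1 and -0.372 to 0.008 for dgat-2. Deviations from the group mean correlated at r -0.18, -0.16 and 0.25 between same-numbered libraries, and from -0.34 to 0.43 between the others. With 3 libraries a group, these values cannot tell whether shared numbers mark a pairing. With the replicate block 1496 genes were higher and 1074 lower. It left lipl-3, lipl-4, lips-12 and lips-17 uncalled (adjusted p 0.0666, 0.0735, 0.0583 and 0.0928, edgeR), while fil-2 was called (0.0251, edgeR). Low counts limit lipl-3 and lips-12, at most 17 in any library, and fil-2, at 5 to 53. The sum of lips-11 and lips-13 and the alternatives for the pathway lists were added after the data were seen.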
